A study of Mus musculus with 10 samples.

Results

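The genes described are 10 ligands and receptors through which tissue cells and antigen presenting cells can costimulate or inhibit T cells: Cd274, Pdcd1lg2, Cd276, Vtcn1, Cd80, Cd86, Icosl, Cd40, Tnfrsf14 and Lgals9. They were chosen by gene symbol, and all 10 were found among the 23284 rows of the count table. RNA-Seq was performed on freshly sorted endothelium from untreated wild type C57BL/6 (B6) mice of 6 to 8 weeks of age. There were 4 libraries of lymph node LEC (LN-LEC), 3 of lymph node BEC (LN-BEC) and 3 of LEC from the diaphragm (D-LEC), a peripheral tissue, where LEC and BEC line lymphatic and blood vessels. LN-LEC and LN-BEC came from inguinal, axillary, brachial, cervical and mesenteric nodes mixed together. All cells were depleted of CD45+ haematopoietic cells and sorted as CD45-negative and CD31+, and LEC were separated from BEC by PDPN. Each library holds the RNA of several mice, so the spread between libraries describes pools and not single animals. Nothing in the labels says which pools were prepared together.

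A T cell that recognizes its antigen reads a further set of signals on the presenting cell. CD80 and CD86 bind CD28, which promotes activation, and CTLA-4, which restrains it, and ICOS ligand binds ICOS. PD-L1, the product of Cd274, and PD-L2, the product of Pdcd1lg2, bind PD-1 and dampen the response, and PD-L1 on LN-LEC is known to limit CD8 T cells that recognize self-antigen on these cells. CD40 and HVEM, the product of Tnfrsf14, are members of the TNF receptor family that meet CD40 ligand and BTLA, CD160 or LIGHT on lymphocytes, and galectin-9 is a secreted lectin for which TIM-3 is one described partner.

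Depth ranged from 22429940 to 48906070 counted fragments per library (median 33067956.5). Levels are given as normalized counts, which are counts divided by the size factor of the library, and 3 counts correspond to 1.89 to 3.89 normalized counts. The sorted populations carried their defining markers. The summed level of 5 LEC markers (Prox1, Lyve1, Pdpn, Reln, Flt4) was 94668 to 119450 in LN-LEC, 387240 to 415550 in D-LEC and 2891 to 7955.1 in LN-BEC, where LN-BEC replicate 3 was the highest. The summed level of 4 BEC markers (Flt1, Nrp1, Vwf, Notch4) was 69497 to 72713 in LN-BEC and at most 1374.2 in the LEC libraries, and that of 4 pan-endothelial markers was 66162 to 173520. LN-BEC replicate 3 and LN-LEC replicate 4 stood apart from the other libraries of their populations over all genes, and results that move without them are given with the values that result. Markers of other cell types differed between the populations. In normalized counts, 6 B cell markers summed to 634 to 972 in LN-BEC, 385 to 537 in LN-LEC and 20.7 to 51.7 in D-LEC, and 6 T cell markers to 205 to 390, 35.5 to 51.5 and 8.02 to 35.3. The sums of 6 dendritic cell markers were 638 to 756 in LN-BEC, 737 to 839 in LN-LEC and 336 to 407 in D-LEC, nearly all of it Zbtb46, while Flt3 was between 0 and 1.3 and Itgax between 0 and 6.9 in every library. The sums of 5 macrophage markers were 342 to 503, 264 to 361 and 497 to 878, and those of 3 fibroblastic reticular cell markers 524 to 818, 233 to 561 and 95.2 to 269.9. D-LEC also held 463 to 1471 normalized counts of 3 mesothelial markers, against 9.51 to 92.8 in the nodes, and 802 to 1035 of 5 skeletal muscle markers, against 2.54 to 15.8. In such bulk samples, fewer cells of a type and less RNA per cell cannot be told apart.

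Cd274 (chromosome 19, 29441928 to 29462584 on the plus strand of mm9, 7 exons) was the ligand that separated the node populations from the diaphragm most firmly. Its level was 12640, 11918, 13219 and 9221.7 normalized counts in the 4 LN-LEC libraries, 10164, 10040 and 8690.4 in LN-BEC, and 638.2, 961.9 and 1004.7 in D-LEC. Every library of both node populations lay far above every D-LEC library. Cd274 was 13.7-fold higher in LN-LEC than D-LEC (log2 fold change 3.77 ± 0.19 SE, edgeR quasi-likelihood test, adjusted p = 7.88e-09) and 11.1-fold higher in LN-BEC than D-LEC (3.47 ± 0.19, adjusted p = 1.54e-08). The difference between the node populations missed the threshold (LN-LEC over LN-BEC 0.30 ± 0.16, 95% confidence interval -0.01 to 0.62, edgeR adjusted p = 0.166). Without LN-LEC replicate 4, the lowest of its population, that difference was 0.40 and passed (edgeR adjusted p = 0.0492). In LN-BEC replicates 1, 2 and 3 the LEC marker sums were 4006.6, 2891 and 7955.1, and the part of LEC in the Cd274 levels of LN-BEC was not tested.

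Pdcd1lg2 (chromosome 19, 29485409 to 29547417, plus strand, 6 exons) begins 22824 bases after the end of Cd274 and encodes the second PD-1 ligand. It was scarce in every library. Normalized counts were 16.9, 41.9, 32.8 and 11.3 in LN-LEC, 22.8, 74.4 and 28.4 in LN-BEC, and 1.26, 0 and 0 in D-LEC, where 1 fragment was counted in all 3 libraries together. All node libraries were above all D-LEC libraries, and LN-BEC replicate 2 was the highest. That library also had the highest T cell and B cell marker sums, 390 and 972, and both sums were higher in the nodes than in the diaphragm. Their part in the Pdcd1lg2 levels was not tested. The ratio of pooled counts over summed size factors was 69.2 for LN-LEC against D-LEC (95% exact interval 12.1 to 2760, 93 counts against 1). It was 128 for LN-BEC against D-LEC (22.7 to 5100, 139 counts against 1). These intervals cover counting error only. The edgeR test over libraries gave adjusted p = 3.14e-04 and adjusted p = 1.02e-04. Between LN-LEC and LN-BEC the log2 fold change was -0.71 ± 0.55 (interval -1.80 to 0.38, edgeR adjusted p = 0.346). The gene passed the filter on low values through the node populations alone, with a mean of 0.42 normalized counts in D-LEC.

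**Figure D1:**
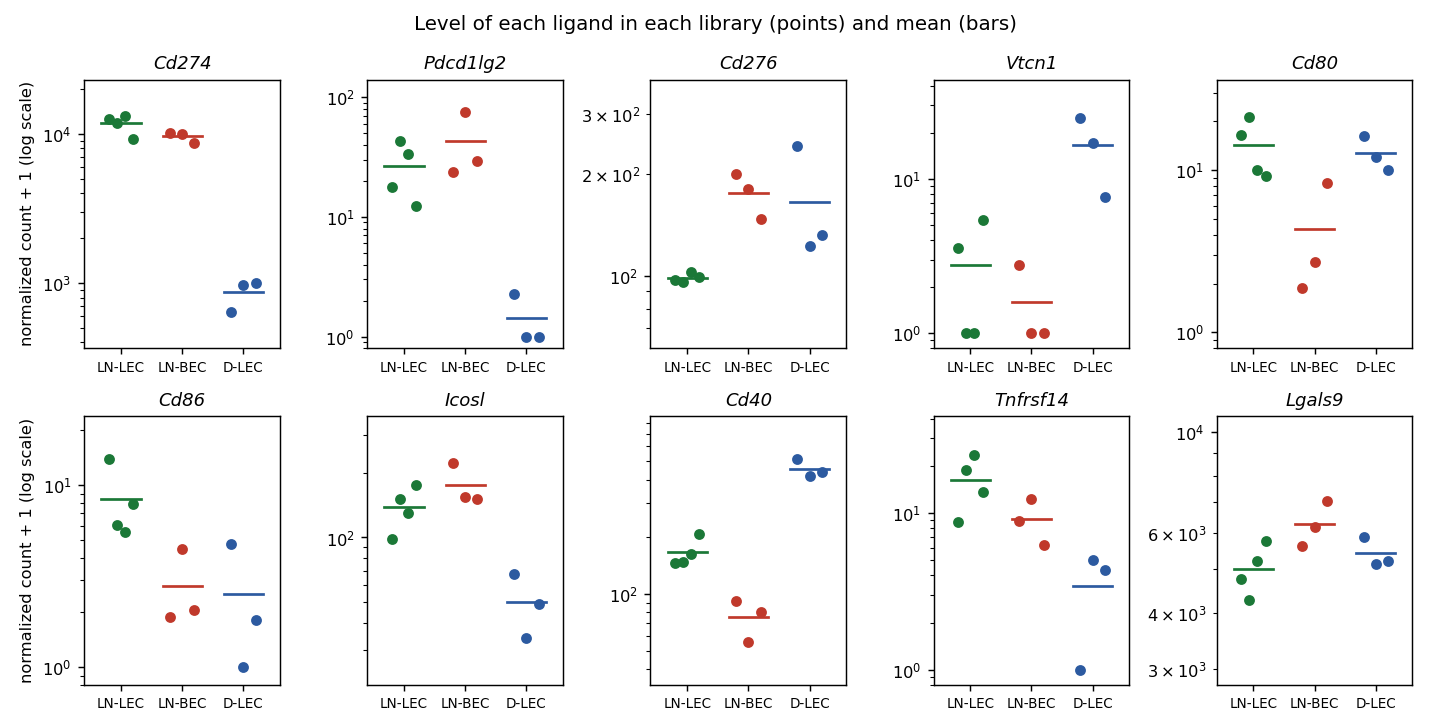
Each panel plots 1 of the 10 genes, with a point for each library and a bar for the mean of each population, as normalized count plus 1 on a log axis. Cd274, Pdcd1lg2 and Icosl were higher in both node populations than in D-LEC, although Pdcd1lg2 was scarce throughout. Cd40 and Vtcn1 were highest in D-LEC, and Lgals9 lay between 4264.2 and 7044.5 in all 10 libraries.

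Because Cd274 and Pdcd1lg2 are adjacent, the named genes within 200 kb of them were examined. Jak2, a kinase of interferon and cytokine receptors that lies upstream of Cd274, was at 2311.2 to 2653.4 normalized counts in LN-LEC and 2281.7 to 2620.1 in D-LEC, and these ranges overlap (log2 fold change 0.03, edgeR adjusted p = 0.83). It was higher in LN-BEC than D-LEC by a log2 fold change of 0.43 (edgeR adjusted p = 0.00103). Ermp1, the farthest of these neighbours downstream, was near equal in both LEC populations (0.02, edgeR adjusted p = 0.903) and lower in LN-BEC than D-LEC (-0.95, edgeR adjusted p = 9.33e-06). Insl6, an insulin-like peptide gene between Jak2 and Cd274, was low but higher in the nodes, with 48.4 to 99.5 normalized counts in LN-LEC, 32 to 42 in LN-BEC and 10 to 11.6 in D-LEC. Its log2 fold changes over D-LEC were 2.61 and 1.69 (edgeR adjusted p = 3.97e-05 and 0.00185). Rln1 did not exceed 4.4 normalized counts in any library. A further pair of neighbours had clone symbols, 5033414D02Rik (Plgrkt) and C030046E11Rik (Ric1). Plgrkt was at 2273.2 to 2681 normalized counts in LN-LEC, 2521.8 to 2990.5 in LN-BEC and 1184.3 to 1453.4 in D-LEC. Ric1 was at 2174.5 to 3072.2, 3085.6 to 3538.3 and 1343.3 to 1750.4 in the same order. Both were tested in a fit that kept such symbols. Over D-LEC, Plgrkt had log2 fold changes of 0.87 in LN-LEC and 1.03 in LN-BEC (edgeR adjusted p = 6.74e-06 and 1.78e-06). Those of Ric1 were 0.87 and 1.11 (edgeR adjusted p = 5.32e-05 and 7.59e-06). The non-coding A930007I19Rik was between 7.0 and 34.1 in all libraries.

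**Figure D2:**
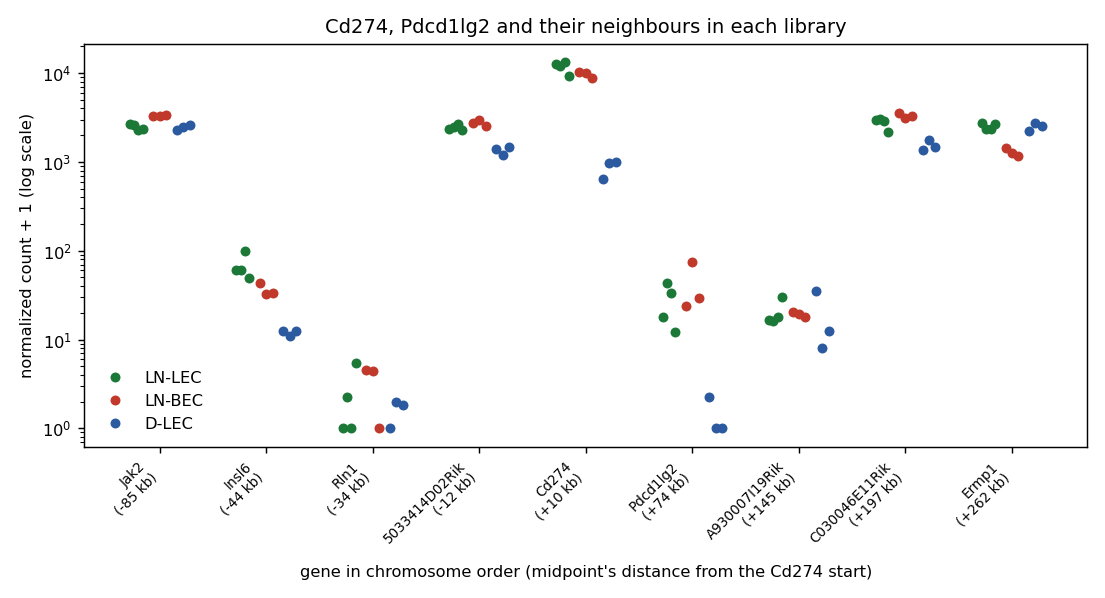
Normalized count plus 1 (log axis) of Cd274, Pdcd1lg2 and 7 neighbours in chromosome order, with a point for each library and, under each name, the distance of the gene's midpoint from the Cd274 start. The gap between node and D-LEC libraries was widest at Cd274 and Pdcd1lg2, while Jak2 and Ermp1 had overlapping LN-LEC and D-LEC libraries. Insl6, 5033414D02Rik and C030046E11Rik were also higher in all node libraries than in D-LEC.

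The sequence before the start is shown for the adjacent PD-1 ligand genes and for Tnfrsf14 and Lgals9, the members whose windows held a match to a searched motif, since interferon responsive elements are known to control several genes of this kind. Promoter windows were taken from RefSeq (GRCm38.p6) for 8 of the 10 genes, the other two being Cd86 and Cd40, and were placed on mm9 by exact match. Each window below ends at the base before the start of the gene in the count table. Motifs of 3 kinds were searched on both strands: GAS (TTCNNNGAA, in 7.02% of 32851 mouse promoter windows of the same 250 bases), ISRE (GAAA, 2 bases of any kind and GAAA, in 2.98%) and NF-kB (GGG, 2 bases of any kind and TTTCC, in 1.41%). The windows are given 5′ to 3′ on the strand of the gene, and capitals mark the ISRE letters, here on the opposite strand (TTTC, 2 bases of any kind and TTTC).
Cd274 (chr19:29441678-29441927, plus strand): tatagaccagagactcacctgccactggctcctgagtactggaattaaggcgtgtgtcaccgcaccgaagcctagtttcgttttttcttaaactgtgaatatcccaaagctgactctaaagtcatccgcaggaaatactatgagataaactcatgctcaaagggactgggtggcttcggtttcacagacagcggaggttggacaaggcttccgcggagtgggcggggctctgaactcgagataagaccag
Pdcd1lg2 (chr19:29485159-29485408, plus strand): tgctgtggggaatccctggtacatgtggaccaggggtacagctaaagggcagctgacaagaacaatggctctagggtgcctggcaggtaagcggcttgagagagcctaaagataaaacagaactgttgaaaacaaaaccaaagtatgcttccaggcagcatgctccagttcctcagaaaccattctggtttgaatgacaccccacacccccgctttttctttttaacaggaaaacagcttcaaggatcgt
Tnfrsf14 (chr4:154302187-154302436, minus strand): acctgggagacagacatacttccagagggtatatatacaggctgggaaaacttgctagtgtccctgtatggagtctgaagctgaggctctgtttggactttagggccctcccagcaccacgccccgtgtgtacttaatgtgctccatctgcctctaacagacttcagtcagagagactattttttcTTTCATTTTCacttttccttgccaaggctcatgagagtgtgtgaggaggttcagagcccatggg
Lgals9 (chr11:78798427-78798676, minus strand): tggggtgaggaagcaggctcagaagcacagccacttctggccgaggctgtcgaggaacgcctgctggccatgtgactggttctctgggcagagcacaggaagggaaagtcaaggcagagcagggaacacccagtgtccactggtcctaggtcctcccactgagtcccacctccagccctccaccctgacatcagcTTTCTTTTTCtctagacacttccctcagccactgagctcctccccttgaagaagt
The windows of Cd274 and Pdcd1lg2 held none of the 3 motifs in these letters, and neither did those of Icosl, Cd80, Cd276 and Vtcn1, which are not printed. The Cd276 window lies 14093 bases from the start of that gene in the count table. The windows of Tnfrsf14 and Lgals9 each held 1 ISRE match, whose first base lies at -64 and -55 from the start. Cd274, Pdcd1lg2 and Icosl were higher in LN-LEC than D-LEC and had no match, Tnfrsf14 was higher and had a match, and Lgals9 was near equal and had a match. A match is a description of letters, and its absence says only that these letters are not in the window. Other forms of the 3 sites were not searched.

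Cd276 and Vtcn1 encode B7-H3 and B7-H4, members of the B7 family that are mostly described as inhibitory and whose partners on T cells are less well established. Cd276 (chromosome 9, 58372107 to 58388747, minus strand) was at 95.9, 95.2, 101.8 and 98.1 normalized counts in LN-LEC, 197.8, 179 and 146 in LN-BEC and 239.7, 121.2 and 130.5 in D-LEC. The LN-LEC libraries were the most uniform and all lay below every other library. Cd276 was lower in LN-LEC than LN-BEC (log2 fold change -0.82 ± 0.23, edgeR adjusted p = 0.0117) and than the D-LEC libraries (-0.71 ± 0.23, edgeR adjusted p = 0.022). The second difference was -0.35 (edgeR adjusted p = 0.176) without D-LEC replicate 1, the highest library, and the first was -0.72 (edgeR adjusted p = 0.0547) without LN-BEC replicate 1. LN-BEC and D-LEC overlapped, with a difference of 0.11 ± 0.24 (interval -0.37 to 0.58, edgeR adjusted p = 0.747).

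Vtcn1 (chromosome 3, 100629382 to 100700845, plus strand) was seen mainly in the diaphragm. Its normalized counts were 24, 16 and 6.61 in D-LEC, against 2.59, 0, 0 and 4.40 in LN-LEC and 1.75, 0 and 0 in LN-BEC. Even the lowest D-LEC library was above every node library. The ratio of pooled counts over summed size factors was 6.42 for D-LEC against LN-LEC (95% exact interval 3.09 to 15, 43 counts against 9). It was 23.3 for D-LEC against LN-BEC (6.07 to 198, 43 counts against 2). Both intervals cover counting error only and not the spread between libraries. The edgeR test called both differences (adjusted p = 0.0237 and 0.00794), but the first missed the threshold without LN-LEC replicate 2 or 3 or D-LEC replicate 1 or 2, with edgeR adjusted p between 0.053 and 0.094. Mesothelial and muscle markers were also highest in D-LEC. In D-LEC replicates 1, 2 and 3 the mesothelial sums were 1222, 463 and 1471 and the muscle sums 802, 977 and 1035. The part of these cell types in the Vtcn1 levels was not tested.

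The classical costimulators Cd80 and Cd86 were close to the detection limit in all 3 populations. Cd80 (chromosome 16, 38459013 to 38487014, plus strand) was at 15.6, 20.3, 9.05 and 8.17 normalized counts in LN-LEC, 0.875, 1.73 and 7.35 in LN-BEC and 15.1, 11 and 9.09 in D-LEC. The LEC libraries of both tissues overlapped and all lay above the LN-BEC libraries. The log2 fold change was 2.01 ± 0.71 for LN-LEC over LN-BEC (edgeR adjusted p = 0.0387) and -1.82 ± 0.74 for LN-BEC over D-LEC (edgeR adjusted p = 0.0578). Single libraries decided both calls. The first was 1.56 to 1.92 with edgeR adjusted p between 0.0789 and 0.135 without LN-LEC replicate 1 or 2 or LN-BEC replicate 1 or 2, and the second was -3.03 (edgeR adjusted p = 0.00911) without LN-BEC replicate 3, which has the most Cd80 and the highest LEC marker sum of the LN-BEC libraries. The part of LEC in the Cd80 levels of LN-BEC was not tested. LN-LEC and D-LEC differed by 0.18 ± 0.62 (interval -1.03 to 1.4, edgeR adjusted p = 0.838).

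Cd86 (chromosome 16, 36603955 to 36666163, minus strand) was at 13, 5.08, 4.52 and 6.92 normalized counts in LN-LEC, at 0.875, 3.46 and 1.05 in LN-BEC and at 3.78, 0 and 0.826 in D-LEC. These are 29 counts over 4 LN-LEC libraries, 6 over 3 LN-BEC libraries and 4 over 3 D-LEC libraries. The LN-LEC libraries lay above all others, yet no comparison passed the threshold. The log2 fold change was 2.32 ± 0.95 over D-LEC (edgeR adjusted p = 0.0619) and 1.95 ± 0.89 over LN-BEC (edgeR adjusted p = 0.106). Without D-LEC replicate 1 the first was 3.73 and passed (edgeR adjusted p = 0.0256). Of the dendritic cell markers, Itgax and Flt3 were near 0 in all libraries, but Siglech and Xcr1 were highest in LN-LEC, as Cd86 was. Siglech was at 17 to 31.7 normalized counts in LN-LEC, at 3.46 to 5.25 in LN-BEC and at 0 to 1.26 in D-LEC (log2 fold change 4.92 for LN-LEC over D-LEC, edgeR adjusted p = 9.60e-05). Xcr1 was at 8.8 to 36.2, 0.875 to 8.65 and 0 to 1.0 (log2 fold change 4.62, edgeR adjusted p = 0.00192). Ccr7 was highest in LN-BEC, at 28.9 to 38.9, as were the B cell and T cell marker sums. The part of dendritic cells, B cells and T cells in the levels of Cd80 and Cd86 was not tested.

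Icosl (chromosome 10, 77532113 to 77542270, plus strand), whose product binds ICOS on activated and follicular helper T cells, was present in both node populations. It was at 97.2, 149.8, 128.9 and 174.8 normalized counts in LN-LEC, 220.6, 153.1 and 150.2 in LN-BEC and 66.8, 33.1 and 47.9 in D-LEC. No D-LEC library reached the lowest node library. Icosl was 2.87-fold higher in LN-LEC (log2 fold change 1.52 ± 0.28, edgeR adjusted p = 5.46e-04) and 3.58-fold higher in LN-BEC (1.84 ± 0.29, edgeR adjusted p = 1.49e-04) than D-LEC. The node populations overlapped (-0.32 ± 0.26, interval -0.83 to 0.18, edgeR adjusted p = 0.361). B cell markers were also higher in the nodes, and their part in the Icosl difference was not tested.

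Cd40 (chromosome 2, 164881136 to 164897154, plus strand) had the opposite order. Its levels were 514.6, 417.8 and 440.4 normalized counts in D-LEC, 143.9, 146, 161.7 and 206.8 in LN-LEC and 90.2, 54.5 and 78.8 in LN-BEC, with no overlap between any of the 3 populations. Cd40 was 2.72-fold lower in LN-LEC than D-LEC (log2 fold change -1.44 ± 0.18, edgeR adjusted p = 1.95e-05) and 6.11-fold lower in LN-BEC than D-LEC (-2.61 ± 0.21, edgeR adjusted p = 1.91e-07). It was 2.25-fold higher in LN-LEC than LN-BEC (1.17 ± 0.20, edgeR adjusted p = 3.02e-04). Cd40 is also a B cell gene, and the order of the populations in B cell markers was the reverse, with the lowest sums in D-LEC. The summed macrophage markers were higher in D-LEC than LN-LEC, but only Cd68 was called. Its log2 fold change was -1.62 for LN-LEC over D-LEC (edgeR adjusted p = 5.24e-04), and Lyz2, Emr1, Csf1r and Itgam did not pass. The Csf1r libraries of LN-LEC nevertheless all lay below those of D-LEC. For LN-BEC over D-LEC only Csf1r was called (log2 fold change -1.19, edgeR adjusted p = 0.0485), and the other 4 markers did not pass. In D-LEC replicates 1, 2 and 3 the macrophage sums were 497, 878 and 514. The part of B cells and macrophages in the Cd40 levels was not tested.

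Tnfrsf14 (chromosome 4, 154296319 to 154302186, minus strand) was at 7.78, 17.8, 22.6 and 12.6 normalized counts in LN-LEC, 7.88, 11.2 and 5.25 in LN-BEC and 0, 4.01 and 3.31 in D-LEC. All node libraries lay above all D-LEC libraries, by a narrow margin in LN-BEC. The log2 fold change over D-LEC was 2.52 ± 0.74 in LN-LEC (edgeR adjusted p = 0.0127) and 1.62 ± 0.78 in LN-BEC (edgeR adjusted p = 0.105). Between LN-LEC and LN-BEC it was 0.89 ± 0.64 (interval -0.35 to 2.14, edgeR adjusted p = 0.301).

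Lgals9 (chromosome 11, 78776481 to 78798426, minus strand) was abundant in all 3 populations. Its normalized counts were 4736.4, 4264.2, 5191.2 and 5767.9 in LN-LEC, 5610.3, 6179 and 7044.5 in LN-BEC and 5887.8, 5132.9 and 5199.7 in D-LEC. LN-LEC and D-LEC overlapped, with a log2 fold change of -0.09 ± 0.11 (interval -0.31 to 0.12, edgeR adjusted p = 0.522). LN-BEC was 1.24-fold above LN-LEC (-0.31 ± 0.11 for LN-LEC over LN-BEC, edgeR adjusted p = 0.0375), although 1 LN-LEC library overlapped with LN-BEC. That call was lost without any 1 of LN-LEC replicates 1, 2 and 3 or LN-BEC replicates 2 and 3, with log2 fold changes of -0.34 to -0.24 and edgeR adjusted p between 0.0536 and 0.141.

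Over all 10 genes, 7 differed between LN-LEC and D-LEC, 4 of them higher in LN-LEC (Cd274, Pdcd1lg2, Icosl, Tnfrsf14) and 3 lower (Cd276, Vtcn1, Cd40). The background was high, since 45.8% of the 15328 genes tested were called in that comparison, 24% higher and 21.7% lower. Between LN-BEC and D-LEC, 5 of 10 differed, with Cd274, Pdcd1lg2 and Icosl higher and Vtcn1 and Cd40 lower, against 48% of all genes, 25.6% higher and 22.5% lower. Between LN-LEC and LN-BEC, 4 of 10 differed, with Cd80 and Cd40 higher in LN-LEC and Cd276 and Lgals9 lower, against 38.2% of all genes, 19.8% higher and 18.4% lower. The share of called members was near the background in both comparisons with LN-BEC, and 3 of the 4 calls between LN-LEC and LN-BEC were lost without 1 library. Populations did not overlap for 8, 7 and 4 of the 10 genes, where 50%, 56.1% and 44.9% of all genes did not overlap. At a further requirement of at least 5-fold, Cd274, Pdcd1lg2, Tnfrsf14 and Vtcn1 remained in the first comparison, against 12.2% of all genes, and Cd274, Pdcd1lg2, Vtcn1 and Cd40 in the second, against 15.2%. Pdcd1lg2 passed the filter on low values through the node populations alone, so its place in these counts over D-LEC is not independent of the filter. The median log2 fold change of the members was 0.85, 0.30 and 0.60, beside 0.03, 0.05 and -0.01 over all genes. These medians weigh all 10 genes alike, among them Pdcd1lg2, Vtcn1, Cd80, Cd86 and Tnfrsf14, which had under 50 counts in a population. Of the other members, Cd274 and Icosl were higher in LN-LEC than D-LEC, Cd276 and Cd40 were lower, and Lgals9 was near equal. The comparisons share populations and are not independent of each other.

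**Figure D3:**
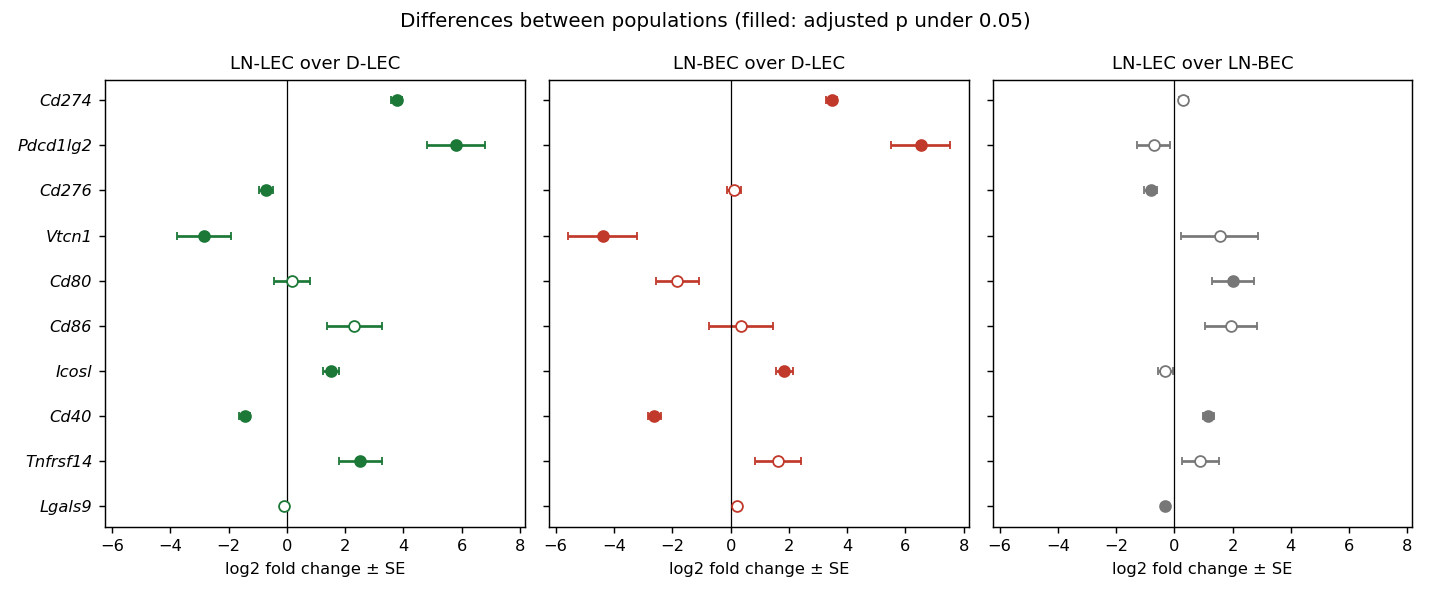
Log2 fold change and its standard error for the 10 genes in the 3 comparisons, with filled points for an adjusted p under 0.05 in edgeR. Cd274, Pdcd1lg2 and Icosl were higher in both node populations than D-LEC, Vtcn1 and Cd40 were lower in both, and the differences between LN-LEC and LN-BEC reached 2.01 at Cd80.

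To compare levels between genes, counts were also scaled per kilobase of exon length (FPKM). On this scale Cd274 and Lgals9 exceeded all other members in the nodes. FPKM values and shares are means ± SD over libraries. In LN-LEC, Cd274 was at 105.7 ± 15.8 FPKM (SD, n = 4) and Lgals9 at 103 ± 13.3, which did not differ beyond their spread, and only 3.69% of named genes had a higher mean than Cd274. They were followed by Cd40 (3.02 ± 0.54), Icosl (1.64 ± 0.40), Cd276 (1.0 ± 0.03), Tnfrsf14 (0.56 ± 0.24), Cd80 (0.26 ± 0.11) and Pdcd1lg2 (0.25 ± 0.14), of which the last pair overlapped, and by Cd86 and Vtcn1 below 0.10. In LN-BEC, Lgals9 (128 ± 13.9 FPKM, n = 3) was above Cd274 (85.7 ± 7.96), and Icosl (2.06 ± 0.47), Cd276 (1.77 ± 0.28) and Cd40 (1.35 ± 0.32) followed with overlapping spreads. In D-LEC, Lgals9 (110.7 ± 8.48 FPKM, n = 3) stood alone, while Cd40 (8.33 ± 0.92) and Cd274 (7.75 ± 1.79) were within each other's spread and Pdcd1lg2 was last. Cd274 made up 49.0% ± 6.35 of the summed FPKM of the 10 genes in LN-LEC and 39.1% ± 4.42 in LN-BEC, but 6.06% ± 1.71 in D-LEC. Cd40 made up 1.41%, 0.617% and 6.42%. The ratio of Cd274 to Lgals9 FPKM was 0.697 to 1.22 in LN-LEC, 0.538 to 0.790 in LN-BEC and 0.0473 to 0.0842 in D-LEC, and LN-LEC replicate 4 gave the lowest LN-LEC ratio.

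**Figure D4:**
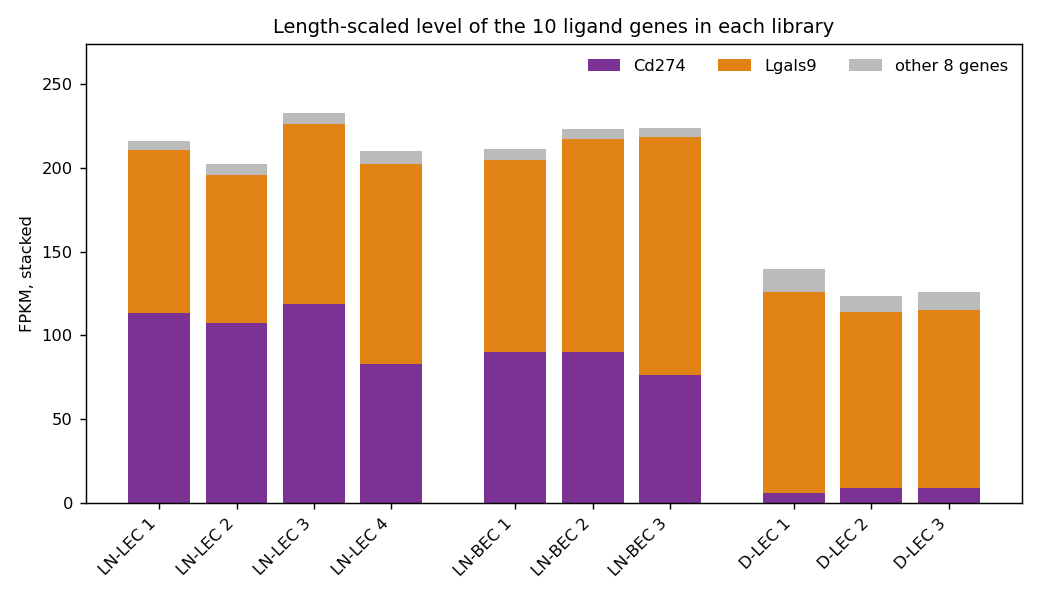
Stacked FPKM of Cd274, Lgals9 and the other 8 genes in each library. Cd274 and Lgals9 together made up 96.3% to 97.7% of the sum in the node libraries and 90.5% to 92.1% in D-LEC, where the Cd274 part was small and the Lgals9 part was as tall as in the nodes.

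The genes whose pattern over the 10 libraries lay closest to each member were found by the root mean square difference of centred log2 CPM. For Cd274 these were Lifr, the leukaemia inhibitory factor receptor (0.193), Arhgef26 (0.194) and Cecr2 (0.225). Lifr averaged 27310 normalized counts in LN-LEC and 17290 in LN-BEC, but 1734 in D-LEC. For Cd40 they were Unc13b (0.179), Fgfr1, a fibroblast growth factor receptor (0.195), and Tmem231 (0.198), and Fgfr1 averaged 1059, 453.9 and 3340 in the same order. For Pdcd1lg2 they were Bend4 (0.478), Hcst (0.489) and Frrs1 (0.495), for Icosl Ankrd9 (0.252), Plxnb1 (0.269) and Zc3h12a (0.316), and for Cd276 Acrbp (0.184), Arhgef2 (0.198) and Klf13 (0.201). For Vtcn1 they included Cxcr7 (0.484) and Thbs3 (0.557), and for Lgals9 Tcirg1 (0.0591), Prmt2 (0.0787) and Rbck1 (0.0798). The scarce genes had loose nearest patterns: Vmo1, Cdc42bpg and Gls2 for Cd80, Cpne5, Gen1 and Tmem132a for Cd86, and Aanat, Gpat2 and Stk32c for Tnfrsf14 lay between 0.342 and 0.398. Among the members themselves, the closest pairs were Cd276 with Lgals9 (0.370), Cd40 with Vtcn1 (0.674) and Cd274 with Pdcd1lg2 (0.732). These values describe likeness over libraries that fall into 3 populations.

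PD-L1 is induced through the interferon-gamma receptor, JAK kinases and IRF1, and CMTM6 and CMTM4 hold the protein at the cell surface. Of 11 genes of this axis, 8 were higher in LN-LEC than D-LEC, 0 were lower and 3 did not pass the test (median log2 fold change 0.72), and 8, 0 and 3 in LN-BEC against D-LEC (median 1.01). For this list and those that follow, 24% of all genes tested were higher and 21.7% lower in LN-LEC than D-LEC. The shares were 25.6% and 22.5% in LN-BEC against D-LEC, and 19.8% and 18.4% in LN-LEC against LN-BEC. Socs1, a feedback inhibitor that interferon induces, was higher by 3.49 ± 0.17 in LN-LEC (547.8 against 49.2 mean normalized counts, edgeR adjusted p = 1.80e-09) and by 2.0 ± 0.18 in LN-BEC. Jak1 was higher by 2.53 and 1.01, Irf1 by 1.66 and 2.19 and the receptor chain Ifngr2 by 1.84 and 1.28. Cmtm6 did not pass the test over D-LEC in LN-LEC (5308.4 against 5382.1 mean normalized counts) or in LN-BEC (0.25, edgeR adjusted p = 0.0522). Cmtm4 was higher by 0.72 in LN-LEC (edgeR adjusted p = 2.65e-05), while the difference in LN-BEC was 0.24 (edgeR adjusted p = 0.0575). Between LN-LEC and LN-BEC 4 of the 11 were higher, 5 were lower and 2 did not pass, with Jak1 higher in LN-LEC by 1.52 and Irf1 lower by a log2 fold change of -0.53. The part of this axis in the Cd274 levels was not tested.

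CD40 and HVEM signal through TRAF adaptors, the kinase NIK and the cellular inhibitors of apoptosis. Of 8 such genes, 6 were higher in LN-LEC than D-LEC, 0 were lower and 2 did not pass (median 1.98), and 7, 0 and 1 in LN-BEC (median 1.13), although Cd40 itself was lower in both. Birc2 was higher by 3.29 and 1.96, Birc3 by 2.84 and 2.31, Traf1 by 2.50 and 2.10 and Map3k14, the gene of NIK, by 2.20 and 1.04. In LN-LEC against LN-BEC 5 were higher, 1 was lower and 2 did not pass (median 0.47).

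**Figure D5:**
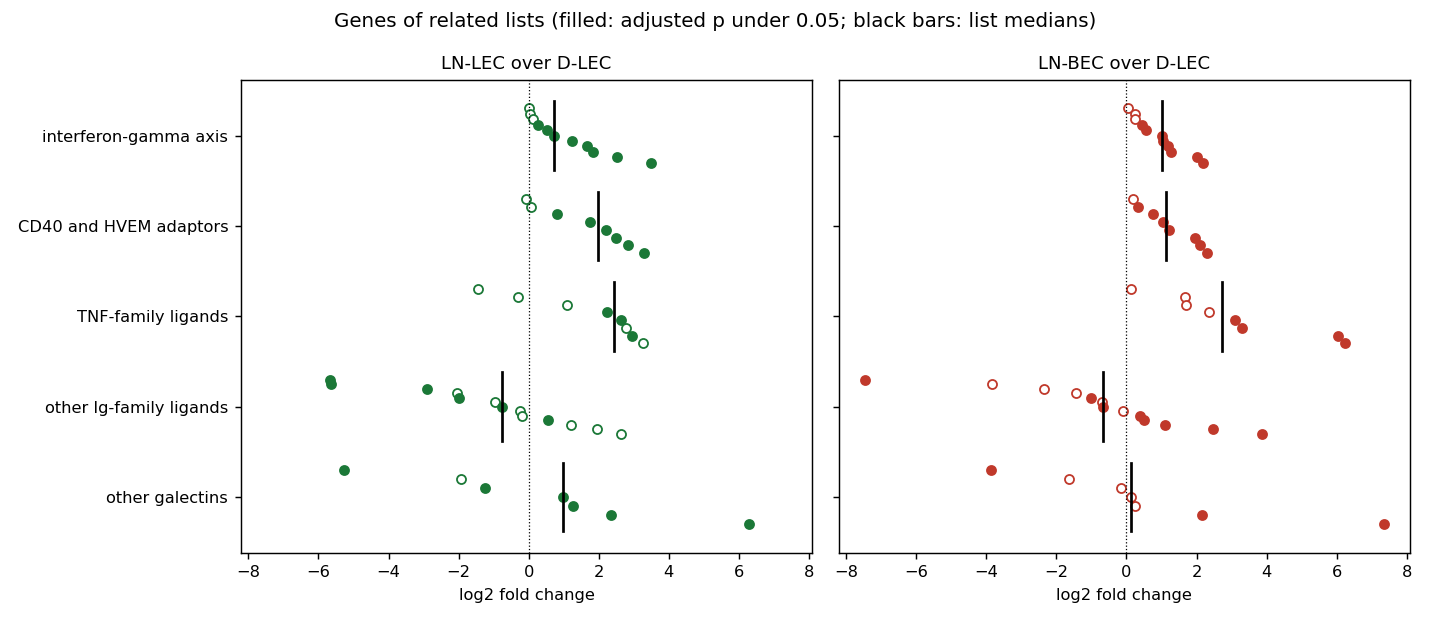
Log2 fold changes over D-LEC of the tested genes of 5 related lists, with filled points for an adjusted p under 0.05 in edgeR and black bars for list medians. The called genes of the interferon-gamma axis, the CD40 and HVEM adaptors and the TNF-family ligands were all above 0 in both comparisons, while the other 2 lists had called genes on both sides.

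Other ligands of T cells divided in both directions. Of 8 tested TNF-family ligands out of 11 in the table, 3 were higher in LN-LEC than D-LEC, 0 were lower and 5 did not pass (median 2.44), and 4, 0 and 4 in LN-BEC (median 2.73). Tnfsf10, the gene of the death ligand TRAIL, was the most abundant of them, at 32927 to 45941 normalized counts in LN-LEC, 44519 to 47219 in LN-BEC and 4938.1 to 6157.3 in D-LEC (log2 fold change 2.93 and 3.09 over D-LEC). Tnfsf15 was 284.3 in LN-BEC, 23.1 in LN-LEC and 3.53 in D-LEC on average. Cd40lg, the partner of Cd40, did not exceed 3.2 normalized counts in any library. In LN-LEC against LN-BEC 0 were higher, 2 were lower (Tnfsf15, Tnfsf18) and 6 did not pass (median -1.90).

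A further list held ligands of the immunoglobulin family together with the fibrinogen-like genes Fgl1 and Fgl2. Of 13 tested out of 15 in the table, 1 was higher in LN-LEC than D-LEC, 5 were lower and 7 did not pass (median -0.75). In LN-BEC against D-LEC the numbers of genes higher, lower and not passing were 5, 3 and 5 (median -0.66). In LN-LEC against LN-BEC they were 4, 5 and 4 (median -0.25). Fgl2, whose secreted form binds the inhibitory Fc receptor of immune cells, was at 107430 to 134230 normalized counts in D-LEC, 2235.5 to 2586.9 in LN-LEC and 382.2 to 913.9 in LN-BEC. Cd200, which inhibits cells that carry its receptor, averaged 55714 in LN-BEC, 26022 in D-LEC and 3440 in LN-LEC, a log2 fold change of -4.00 for LN-LEC over LN-BEC (edgeR adjusted p = 7.81e-11). Ceacam1 was likewise highest in LN-BEC, at 3046.7 to 3385.2, against 476.8 to 678.4 in D-LEC and 72.4 to 269.7 in LN-LEC. VISTA, another B7-like inhibitory molecule, carries the older symbol 4632428N05Rik and was tested in a fit that kept clone symbols. It was at 22164 to 24264 normalized counts in LN-LEC, 10283 to 10701 in LN-BEC and 7876.9 to 10185 in D-LEC. Its log2 fold change was 1.45 for LN-LEC over D-LEC (edgeR adjusted p = 3.58e-08), 1.19 for LN-LEC over LN-BEC (edgeR adjusted p = 3.08e-07) and 0.26 for LN-BEC over D-LEC (edgeR adjusted p = 0.052).

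Of the 7 other galectins, 4 were higher in LN-LEC than D-LEC, 2 were lower and 1 did not pass (median 0.98), against 2, 1 and 4 in LN-BEC over D-LEC (median 0.13) and 2, 2 and 3 in LN-LEC over LN-BEC (median -0.31). Lgals3 was at 1352.1 to 1763.4 normalized counts in D-LEC, 24.1 to 46.7 in LN-LEC and 88.2 to 115.5 in LN-BEC. Lgals1 was highest in LN-LEC, at 3632 to 3956.7, with 1367.3 to 2026.5 in LN-BEC and 1727.3 to 2163.2 in D-LEC. Lgals12, counted among those higher in the nodes, was listed at 0 in all D-LEC libraries and passed the filter through the node populations alone. Set against 3 counts over the D-LEC libraries together, it was 9.17-fold higher in LN-LEC and 20-fold higher in LN-BEC. These ratios make no allowance for counting error.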

How the data were processed

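Each of the 10 libraries is RNA of a pool of mice, amplified with the Ovation V2 kit before sequencing of read pairs. Per the methods of the study and the file header, the authors trimmed the reads (Fastx-trimmer), mapped them to the mm9 build (STAR) and assigned fragments with both ends mapped to the exons of each symbol (featureCounts 1.4.4) without use of strand. The deposited values are raw counts for 23284 symbols, with the exon length of each gene. The members and the lists of related genes and markers were chosen with earlier results of these data known.

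Differences were tested with the quasi-likelihood F test of edgeR 4.0.16 (R 4.3.3) for 3 comparisons, after TMM scaling and a robust fit over all 10 libraries with a mean for each population. P-values had Benjamini-Hochberg adjustment over 15328 genes and a threshold of 0.05. Tested genes had a mean normalized count of at least 1 in at least 1 population. Predicted, RIKEN, LOC and clone symbols, 3817 in all, were left out. The SE of a log2 fold change is its size divided by the square root of F, and ± after a log2 fold change is an SE. Normalized counts used DESeq2 1.42.0 size factors, and FPKM used TMM factors and the deposited lengths. No 2 libraries of a population agreed within sampling noise, and no member shares exon bases with another gene of the mm9 table.

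Named genes were all members, genes of the lists with at most the 4 largest called changes or a partner, adaptor or regulator of a member, the 3 nearest patterns for each member, and genes within 200 kb of Cd274 or Pdcd1lg2. Some genes that this rule names are not reported here. The procedure was tested on simulated data. Alternatives were DESeq2, its size factors in edgeR, other filters, clone symbols kept, only 2 populations, and leaving out libraries.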

Additional observations from a re-analysis of the deposited data

How the results depend on the processing

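Among the log2 fold changes of members under the alternatives, 468 kept their direction and side of the threshold, 16 lost and 4 gained the call, and 7 changed sign, none of them past the threshold. Leaving out 1 library at a time gave -0.093 to 0.39 for Cd80 in LN-LEC over D-LEC, -0.49 to 1.78 for Cd86 and -0.068 to 0.47 for Cd276 in LN-BEC over D-LEC, and -1.05 to 0.014 for Pdcd1lg2 in LN-LEC over LN-BEC. The sign changed for Cd80 without LN-LEC replicate 2, for Cd86 without LN-BEC replicate 2 (-0.49) or D-LEC replicate 2 (-0.19), for Cd276 without D-LEC replicate 2 or 3 (-0.033), and for Pdcd1lg2 without LN-BEC replicate 2. Vtcn1 in LN-LEC over LN-BEC was -0.051 without both LN-BEC replicate 3 and LN-LEC replicate 4. Cd274, Icosl and Cd40 kept every call over D-LEC. With a mean FPKM of at least 1 as the filter, fewer members were tested, and 2 were higher in LN-LEC than D-LEC, 1 lower in LN-BEC than D-LEC and 1 higher in LN-LEC than LN-BEC. With only the 2 populations compared, 1 was higher in LN-LEC than LN-BEC. Leaving out 1 library at a time gave 1 to 3 members higher and 1 to 2 lower in LN-LEC than LN-BEC, and 1 to 3 lower in LN-LEC than D-LEC. Without scaling for length, the Cd274 share was 68.0%, 58.7% and 12.6% in the 3 populations (LN-LEC first, D-LEC last) and the Lgals9 share 29.2%, 38.3% and 77.4%, against 47.8%, 58.2% and 85.4% per length. DESeq2 and its size factors changed no member count by over 1.5 times. Counts over all genes stayed within 1.5 times in all 102 cases. Members with under 50 counts in a population (Pdcd1lg2, Vtcn1, Cd80, Cd86, Tnfrsf14) are limited by depth. No paired analysis was possible because the labels give no replicate numbers or other pairing of the populations.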

Other observations

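The receptors through which T cells read these ligands were also examined, since some are known outside T cells. Of 19 such genes, 4 were higher in LN-LEC than D-LEC, 4 were lower and 11 did not pass the test (median log2 fold change -0.34), against 7, 3 and 9 in LN-BEC over D-LEC (median 0.31) and 2, 7 and 10 in LN-LEC over LN-BEC (median -0.73). Over all genes tested, 24% were higher and 21.7% lower in LN-LEC than D-LEC. The shares were 25.6% and 22.5% in LN-BEC over D-LEC, and 19.8% and 18.4% in LN-LEC over LN-BEC. Pdcd1, the gene of PD-1 itself, was at 92.1, 109.2 and 83.5 normalized counts in D-LEC, 1.3 to 11.4 in LN-LEC and 0 to 6.3 in LN-BEC, so that the receptor was highest where both of its ligands were lowest (-4.26 for LN-LEC over D-LEC, edgeR adjusted p = 8.07e-05). Cd2 was likewise at 1598.1 to 2165.7 in D-LEC, 5.7 to 18.9 in LN-LEC and 115.5 to 130.6 in LN-BEC. The summed level of 6 T cell markers was 8.02 to 35.3 in D-LEC, below its level in the nodes, and the part of T cells in the Pdcd1 and Cd2 levels was not tested.

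Cd226, an activating receptor of T cells and NK cells, was at 234.5 to 424 normalized counts in LN-LEC, 6.1 to 18.9 in LN-BEC and 0.8 to 5.0 in D-LEC (log2 fold change 6.47 over D-LEC, edgeR adjusted p = 1.54e-07). T cell markers summed to 35.5 to 51.5 in LN-LEC, 205 to 390 in LN-BEC and 8.02 to 35.3 in D-LEC. The node populations thus stood in the opposite order, while D-LEC was lowest in both. The part of T cells in the Cd226 levels was not tested. Tnfrsf9, the gene of 4-1BB, averaged 1301 in LN-BEC, 49.1 in LN-LEC and 13.7 in D-LEC. Btla, the partner of HVEM, was at 151.2 to 326 in LN-BEC, 11.3 to 45.4 in LN-LEC and 5.0 to 7.6 in D-LEC, in the same order as the B cell markers, whose part in it was not tested. Icos, the partner of ICOS ligand, did not exceed 23.6 in any library.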
